A study of Mus musculus with 6 samples.

Results

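The collagen chain genes of the mouse were described in cultured embryonic fibroblasts of 3 mutant genotypes, each set against wild type. Members were all genes whose symbol in the array's annotation is Col, a type number, the letter a and a chain number. This gave 39 genes on 40 spots, of 16504 named genes and 22393 spots in all. Grouped by the assembly their chains build, the members comprised 10 fibrillar chains, 6 chains of type IV, 8 fibril-associated chains (FACIT), 4 beaded-filament chains of type VI, 3 network-forming chains of types VIII and X, 1 anchoring-fibril chain, 2 multiplexins, 4 transmembrane collagens and 1 further gene, Col26a1.

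The study asked how gene expression differs from wild type in cells mutant for Wrn, for PARP-1 or for both. Fibroblasts from embryos of 15.5 days, on the strain background 129/Sv-Black Swiss, were grown in serum without any treatment. Cytoplasmic RNA came from passage 2, after 10 population doublings by the design text. Each RNA pool combined cells of 3 embryos from 1 litter, and a second litter gave a second pool per genotype. Each of 6 arrays carried wild-type cRNA in Cy5 and cRNA of 1 mutant in Cy3, with 2 arrays per mutant and no dye swap. The Wrn mutant has an in-frame deletion of the Wrn helicase, the enzyme lost in human Werner syndrome, so it is not labelled a null. The PARP-1 null is without poly(ADP-ribose) polymerase 1, which responds to DNA breaks. The third genotype is the Wrn-PARP1 double mutant, which has both changes, and its duplicate array has a strain label that reads wild type while its title and source name the double mutant. The cells were whole-embryo cultures that had not been sorted.

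Collagens are secreted proteins whose chains wind around one another into a rope-like helix. Fibrillar collagens bundle into the fibers that give connective tissue its tensile strength, and fibroblasts are their main producers. Type IV chains form the sheet at the core of basement membranes, FACIT chains sit on fibril surfaces, type VI builds fine beaded filaments around cells, and the transmembrane collagens stay anchored in the plasma membrane.

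Positive log2 ratios were taken to mean more RNA in the mutant. That reading is likely but not certain: Parp1 lay between -2.97 and -2.30 on the 4 arrays of cells lacking PARP-1, including -2.59 on the array with the discordant strain label. Wrn gives no such support: it was at 0.84 and 0.58 in Wrn mutant cells and at 0.25 and 0.71 in double-mutant cells, above 0 on all 4 arrays of Wrn-mutated cells, and passed in neither (adjusted p = 0.122 and 0.137 in limma). Whether its spot lies in the deleted stretch is not known here, so Wrn checks neither the labels nor the direction. The default of the Agilent scanner software, red over green, would with the labelled dyes mirror every direction given here. A ratio against 0 holds any dye bias of a probe, which cancels between mutants, and only the ratio is known, so the level of one gene cannot be set against that of another and the presence of a cell type cannot be checked. Median ratios were 0 on all 6 arrays, and 16.9% to 23.7% of an array's spots were exactly 0. Across spots, pairs of arrays correlated between 0.606 and 0.847, all carrying wild type as the partner. Arrays of the same genotype correlated at 0.759 (Wrn mutant), 0.752 (PARP-1 null) and 0.802 (double mutant). The highest value was between the first PARP-1 null array and the duplicate double-mutant array. Over the collagen genes the same-genotype values were 0.783, 0.832 and 0.458, and the duplicate double-mutant array correlated at 0.827 with the duplicate PARP-1 null array. The p-values measure the spread between 2 pools or arrays per genotype, which may be partly technical.

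Few collagen genes passed the test against wild type, and none of the 4 that did was a fibrillar chain. Col4a4, a type IV chain, rose modestly in all 3 genotypes. Col23a1, a transmembrane collagen, fell in both genotypes without PARP-1, and Col10a1, the collagen of hypertrophic cartilage, and Col6a4, a type VI chain, fell in the double mutant. Col23a1, Col10a1 and Col6a4 lay below 0 on all 6 arrays. At a Benjamini-Hochberg adjusted p of 0.05 in limma, taken over all features, 1 of 39 collagen genes passed in the Wrn mutant (2.56%, against 2.35% of all named genes). In the PARP-1 null 2 passed (5.13%, against 7.19%), and in the double mutant 4 passed (10.3%, against 18.5%), 1 higher and 3 lower (where 10.1% and 8.38% of all named genes were higher and lower). The shares among collagens were thus near or below those of all genes. In bulk RNA, fewer cells of a type and less RNA per cell cannot be told apart.

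By size alone, without a test, 8 collagen genes had a mean of at least 2-fold with both arrays on the same side of 0 in the Wrn mutant (20.5%, against 7.83% of all named genes), of which 6 were higher (15.4%, against 3.47%). The count was 8 in the PARP-1 null (20.5%, against 10.5%) and 7 in the double mutant (17.9%, against 16.8%). On both arrays of a genotype, 19 collagen genes were above 0 in Wrn mutant cells (48.7%, against 29.3% of all named genes), 19 in PARP-1 null cells (48.7%, against 32%) and 11 in the double mutant (28.2%, against 33.3%). Both arrays were below 0 for 8, 7 and 6 collagen genes in that order of genotypes, where all named genes gave 32%, 28.8% and 29.4%. The median log2 ratio of the 39 genes was 0.15 in Wrn mutant cells, 0.26 in PARP-1 null cells and 0.03 in double-mutant cells, against a median of 0 for all named genes on every array. Leaving out 1 array moved these medians: to 0.35 without the first Wrn mutant array, to 0.48 without the first and 0.17 without the duplicate PARP-1 null array, and to 0.39 without the first and 0 without the duplicate double-mutant array.

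**Figure D1:**
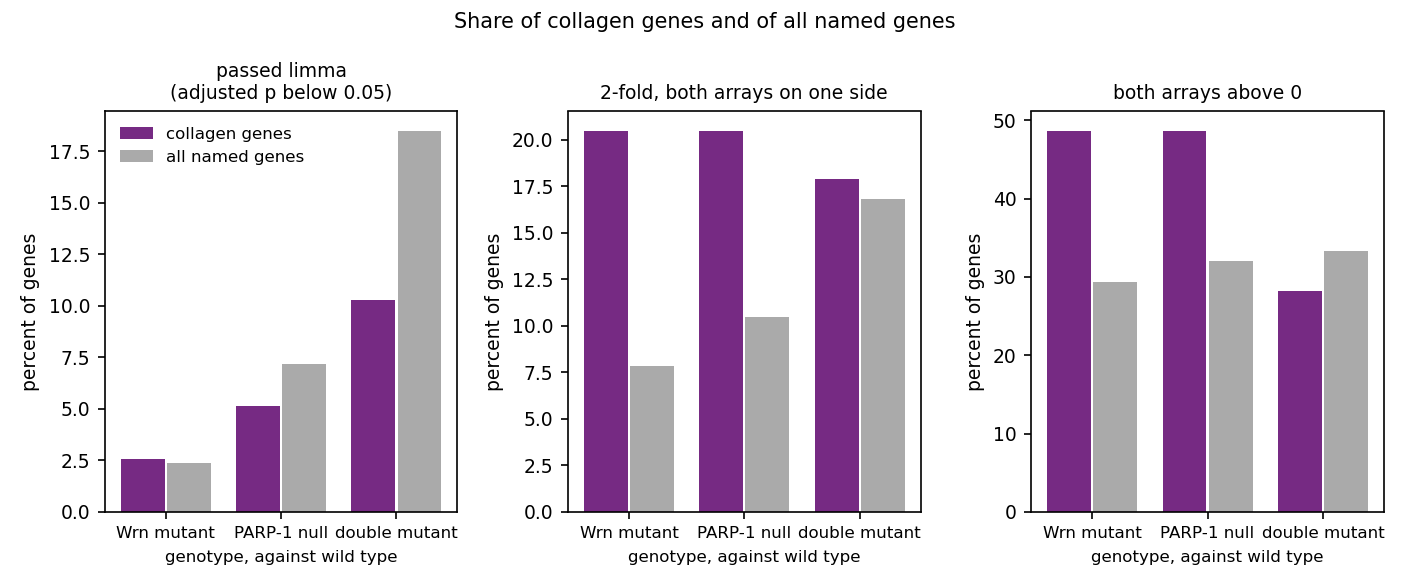
Percent of genes (y axis, from 0) in each genotype against wild type (x axis), for the 39 collagen genes and for all 16504 named genes, by limma's adjusted p, by the 2-fold rule and by the sign on both arrays. By the 2-fold rule the collagen bar is above that of all genes in each genotype, though by little in the double mutant (17.9% against 16.8%). By the adjusted p it is not above in the PARP-1 null or the double mutant.

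**Figure D2:**
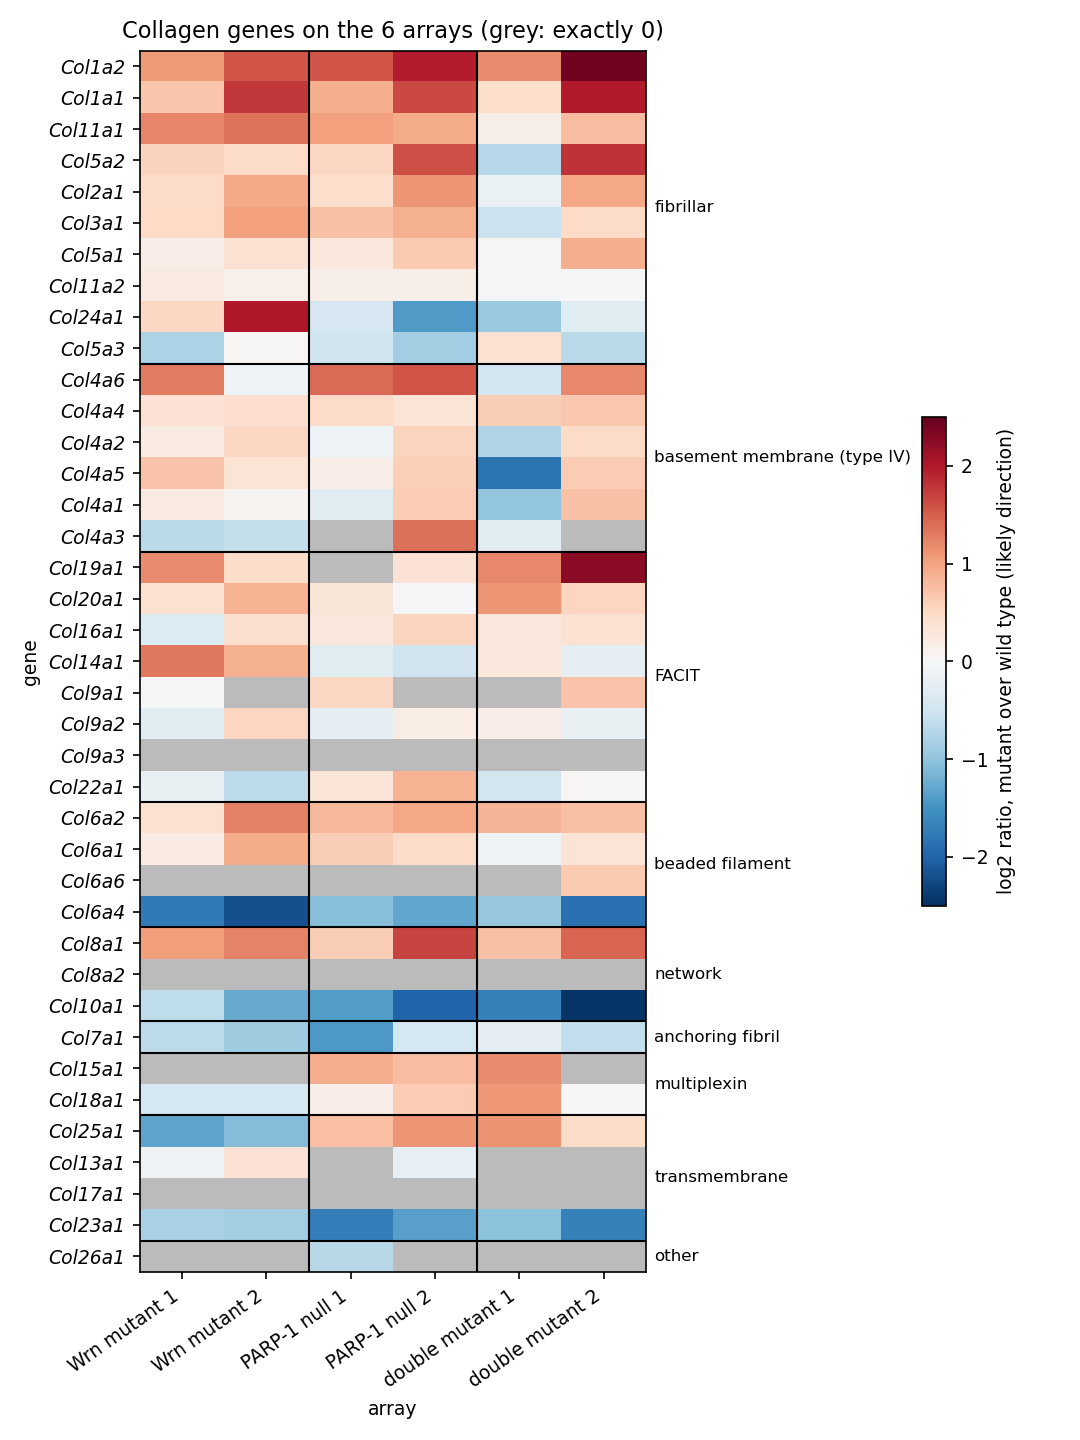
Log2 ratio of each of the 39 collagen genes (rows, by class) on each of the 6 arrays (columns), on a colour scale read as mutant over wild type, with exact 0 in grey. 7 genes are above 0 on all arrays, 4 are below 0 on all arrays and 3 are exactly 0 throughout.

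7 genes were above 0 on all 6 arrays: Col1a1, Col1a2, Col5a1, Col11a1, Col4a4, Col6a2 and Col8a1 (17.9%, against 17% of all named genes). Another 4, Col6a4, Col7a1, Col10a1 and Col23a1, were below 0 on all arrays (10.3%, against 16.2%). Col8a2, Col9a3 and Col17a1 were exactly 0 throughout (7.69%, against 5.55%), and the sources used here do not say whether such a 0 was measured.

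Of the fibrillar chains, those of type I had the highest mean ratios over the 6 arrays, and none of the 10 passed the test in any genotype. Other treatments of exact 0 changed this for both Col1a2 and Col11a1, although neither gene had an exact 0 on any array. Under these treatments their own ratios stayed the same, and only the other features in the fit changed. With 0 as missing, limma called Col1a2 in both genotypes without PARP-1 and Col11a1 in both single mutants, and with spots holding a 0 left out it also called Col1a2 in Wrn mutant cells. Scale normalization called Col11a1 in Wrn mutant cells, and leaving out either double-mutant array called it in PARP-1 null cells. Col1a2 encodes the second chain of type I collagen, the main collagen of skin and bone. Its log2 ratios were 1.07 and 1.58 in Wrn mutant cells, 1.56 and 1.97 in PARP-1 null cells, and 1.19 and 2.41 in double-mutant cells. All 6 arrays lay above 0, and those of the 3 genotypes overlapped. The means were 1.32 ± 0.36 (SD, n = 2), 1.76 ± 0.28 and 1.80 ± 0.87, with limma adjusted p of 0.153, 0.0780 and 0.0518.

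Col1a1, the other chain of type I, gave 0.69 and 1.76 in Wrn mutant cells, 0.90 and 1.65 in PARP-1 null cells, and 0.45 and 1.99 in double-mutant cells. Its duplicate array was the higher in each genotype, and the spread was wide, at 1.22 ± 1.09 (SD, n = 2) in the double mutant (adjusted p = 0.208 in limma). The pair Col1a1 and Col1a2 had the same sign on 6 of 6 arrays, with gaps of 0.18 to 0.74 between the genes. Col11a1, a chain of the minor cartilage fibrils that also nucleates fibril growth, gave 1.21 and 1.36 in Wrn mutant cells, 1.03 and 0.92 in PARP-1 null cells, and 0.15 and 0.77 in double-mutant cells. Both arrays of each single mutant were above those of the double mutant. Its mean was 1.29 ± 0.10 in the Wrn mutant (adjusted p = 0.0574 in limma) and 0.98 ± 0.08 in the PARP-1 null (adjusted p = 0.0600), and its difference between genotypes did not pass.

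Col3a1, the chain of type III collagen in stretchable tissues, gave 0.50 and 1.02 in Wrn mutant cells, 0.74 and 0.89 in PARP-1 null cells, and -0.53 and 0.47 in double-mutant cells. The single mutants were above 0 on all 4 arrays, while the double-mutant arrays fell on either side of it. Col5a2, a chain of the type V collagen that limits fibril width, gave 0.57 and 0.48, then 0.51 and 1.61, then -0.71 and 1.81 in the same order. Col3a1 and Col5a2, which RefSeq places beside each other, had the same sign on 6 of 6 arrays, with gaps of 0.07 to 1.34. None of their means passed (adjusted p of 0.197 or more in limma).

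Col24a1, a fibrillar chain found in developing bone, was on opposite sides of 0 in different genotypes. It gave 0.52 and 2.00 in Wrn mutant cells, -0.42 and -1.41 in PARP-1 null cells, and -0.92 and -0.29 in double-mutant cells. Both Wrn mutant arrays were thus above all 4 others. The other fibrillar chains were Col2a1, the cartilage chain, between -0.16 and 1.10, Col5a1, a type V chain, between 0.02 and 0.92, Col5a3, another type V chain, between -0.86 and 0.39, and Col11a2, a second type XI chain, between -0.05 and 0.22. Both arrays were above 0 for 9 of 10 fibrillar chains in Wrn mutant cells, 8 in PARP-1 null cells and 4 in double-mutant cells. Of all named genes, 29.3%, 32% and 33.3% had both arrays above 0 in that order.

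**Figure D3:**
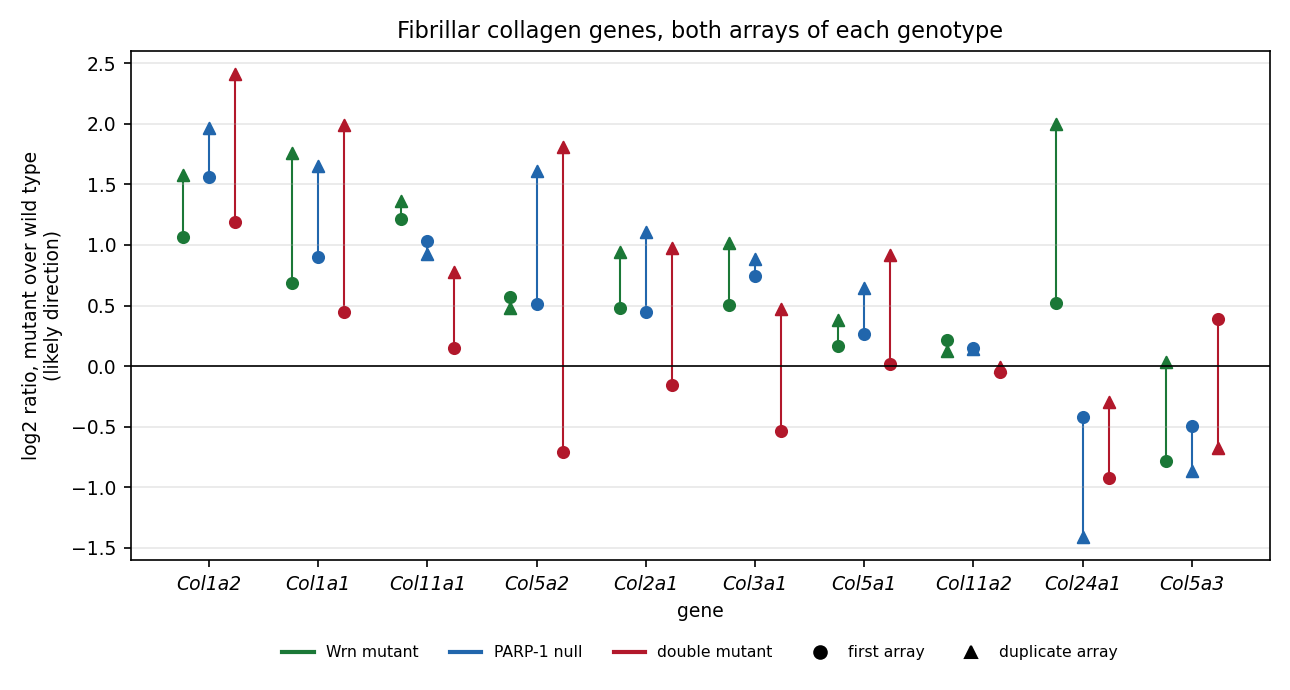
Log2 ratio (y axis, mutant over wild type, likely direction) of the 10 fibrillar collagen genes (x axis) on the first and the duplicate array of each genotype. Col1a2 lies above 1 on all 6 arrays, and the double-mutant duplicate array is above the first for 9 of 10 genes.

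The arrays of one genotype differed most among these chains in the double mutant. Its duplicate array was above the first for 9 of 10 fibrillar chains and for 6 of 6 type IV chains, against 45.7% of all named genes. The median of the fibrillar chains was -0.01 on the first double-mutant array and 0.85 on the duplicate, and the median of the type IV chains was -0.62 and 0.65. The median absolute gap between those arrays was 0.67 for all collagen genes and 0.29 for all named genes. In the Wrn mutant the duplicate was above the first for 8 of 10 fibrillar chains, against 45.5% of all named genes, and in the PARP-1 null for 6, against 52.6%. The duplicate double-mutant array is the one with the discordant strain label, and other genes differed between these arrays too: Fn1, which encodes fibronectin, gave -3.16 and -0.13, and Acta2, the smooth muscle actin of contractile fibroblasts, gave -0.37 and 2.07. The median of the 6 smooth muscle and myofibroblast markers ran from -0.39 on the first to 1.90 on the duplicate double-mutant array, and their part in the collagen values was not tested. The median of the 10 fibroblast markers was 0.61 and 0.98 on those arrays and ran from 0.03 to 0.98 over all 6.

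The type IV chains held the single collagen gene that passed the test in every genotype, Col4a4. It is among the 7 that were above 0 on all 6 arrays, of which Col1a1, Col1a2, Col6a2 and Col8a1 had larger means in every genotype without passing. Col4a4, whose protein joins the products of Col4a3 and Col4a5 in the filter membrane of the kidney, gave 0.37 and 0.41 in Wrn mutant cells, 0.48 and 0.35 in PARP-1 null cells, and 0.62 and 0.67 in double-mutant cells. The arrays of each pair lay close together, and both double-mutant arrays were above the other 4. The means were 0.39 ± 0.03 (SD, n = 2), 0.41 ± 0.09 and 0.64 ± 0.04, with limma adjusted p of 0.0498, 0.0319 and 0.0116. Leaving out any 1 of the 6 arrays ended the call in the Wrn mutant (adjusted p of 0.0724 to 0.185) and in the PARP-1 null (0.0723 to 0.0925). In the double mutant it ended it without the first or the duplicate double-mutant array (adjusted p of 0.0897 and 0.0660 in limma), while leaving out each of the other 4 arrays kept the call.

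The type IV genes lie in pairs that share a start region on opposite strands. Col4a1 and Col4a2 encode the chains of nearly all basement membranes, and the windows that RefSeq (GRCm38.p6) gives around their starts share 78 bases, with starts 21 bases apart and 73.1% G or C in the shared stretch. Col4a1 gave 0.23 and 0.06 in Wrn mutant cells, -0.26 and 0.63 in PARP-1 null cells, and -0.99 and 0.74 in double-mutant cells. Col4a2 gave 0.20 and 0.52, then -0.11 and 0.56, then -0.76 and 0.48. The genes had the same sign on 6 of 6 arrays and never lay more than 0.46 apart, although each crossed 0 within the PARP-1 null and the double mutant.

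Col4a3, the partner of Col4a4, gave -0.68 and -0.60 in Wrn mutant cells, 0 and 1.38 in PARP-1 null cells, and -0.29 and 0 in double-mutant cells. Col4a3 and Col4a4 shared a sign on 1 of 6 arrays, with a median gap of 0.96. Col4a5, the chain altered in most human Alport syndrome, gave 0.70 and 0.35 in Wrn mutant cells, 0.17 and 0.59 in PARP-1 null cells, and -1.82 and 0.64 in double-mutant cells. Its neighbour Col4a6, a chain of smooth muscle and skin basement membranes, gave 1.31 and -0.10, then 1.41 and 1.57, then -0.49 and 1.21. That pair shared a sign on 5 of 6 arrays. The first double-mutant array was the lowest for Col4a1, Col4a2, Col4a5 and Col4a6, and no type IV gene other than Col4a4 passed.

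**Figure D4:**
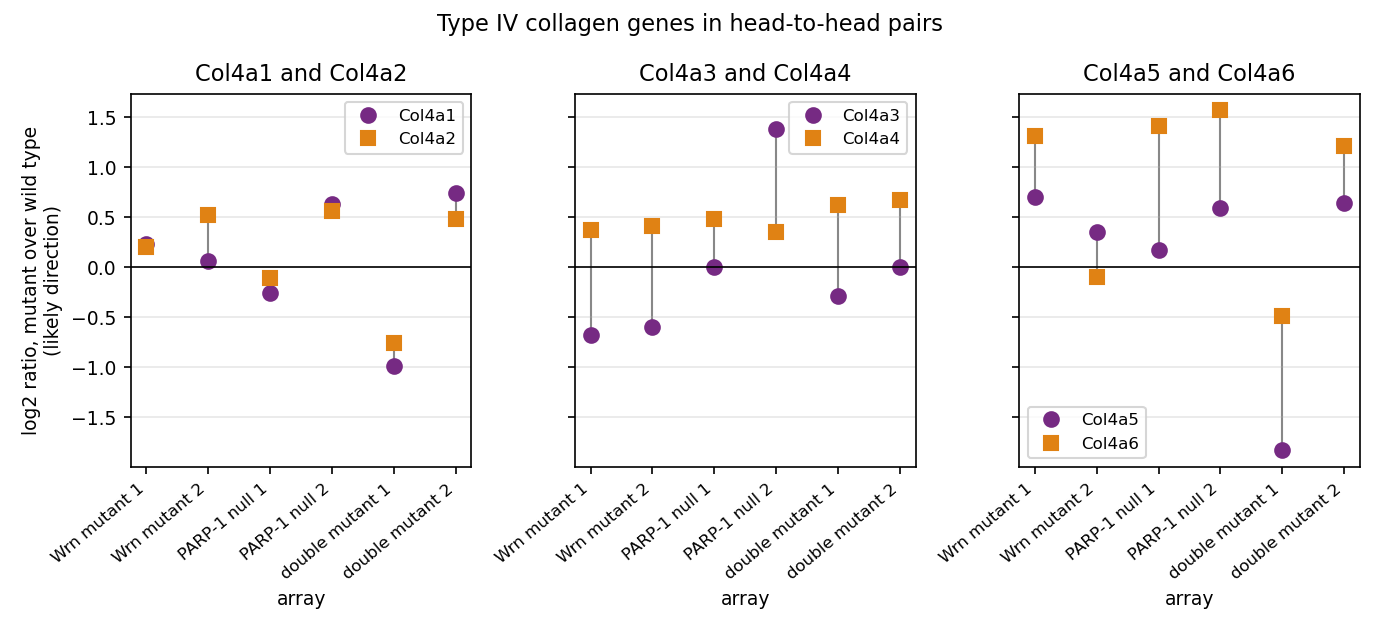
Log2 ratio (y axis, mutant over wild type, likely direction) of the type IV genes on the 6 arrays (x axis), 1 panel per head-to-head pair. Col4a1 and Col4a2 stay within 0.46 of each other, while Col4a4 stays between 0.35 and 0.67 and Col4a3 ranges from -0.68 to 1.38.

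Among the network-forming chains, Col8a1 and Col10a1 stood on opposite sides of 0. Col10a1 encodes type X collagen, the mark of hypertrophic chondrocytes. It gave -0.64 and -1.26 in Wrn mutant cells, -1.41 and -2.00 in PARP-1 null cells, and -1.69 and -2.45 in double-mutant cells. Every array was below 0, and the PARP-1 null and double-mutant arrays overlapped one another. It fell in the double mutant, with a mean of -2.07 ± 0.53 (SD, n = 2, adjusted p = 0.0304 in limma), and the means of -0.95 ± 0.44 for Wrn mutant cells and -1.70 ± 0.42 for PARP-1 null cells did not pass (adjusted p = 0.187 and 0.0606). Under both other treatments of exact 0, Col10a1 passed in the PARP-1 null too. Of the 8 chondrocyte markers none passed, and their median ran from -0.52 to 0 over the arrays. They did not share a sign: Sox9, Acan and Snorc were below 0 on all 6 arrays, Matn3 was above 0 on all 6 and Matn1 on 5, and Cnmd was at 0 on all 6. Their part in the Col10a1 value was not tested. Col8a1, a chain of vascular and corneal matrix, gave 1.05 and 1.25 in Wrn mutant cells, 0.61 and 1.69 in PARP-1 null cells, and 0.73 and 1.46 in double-mutant cells. All 6 arrays were above 0 and the genotypes overlapped, with means of 1.10 to 1.15 that did not pass (adjusted p of 0.116 to 0.175 in limma). Col8a1 passed in the double mutant under both other treatments of exact 0, and in the PARP-1 null with spots holding a 0 left out.

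Within type VI, the beaded filaments that link cells to the matrix, the chains did not share a sign. Col6a4 gave -1.77 and -2.20 in Wrn mutant cells, -1.06 and -1.30 in PARP-1 null cells, and -0.95 and -1.87 in double-mutant cells. All arrays were below 0, and the Wrn mutant arrays overlapped those of the double mutant but not those of the PARP-1 null. It fell in the double mutant, at -1.41 ± 0.65 (SD, n = 2, adjusted p = 0.0487 in limma), and the larger mean of -1.99 ± 0.30 in the Wrn mutant did not pass (adjusted p = 0.0603). Under both other treatments of exact 0, Col6a4 passed in each genotype, and with scale normalization it passed in the Wrn mutant alone. Col6a2, a core chain, gave 0.38 and 1.26 in Wrn mutant cells, 0.80 and 0.96 in PARP-1 null cells, and 0.84 and 0.73 in double-mutant cells. Its neighbour Col6a1, the other core chain, gave 0.21 and 0.92, then 0.62 and 0.48, then -0.10 and 0.33. The pair shared a sign on 5 of 6 arrays, and neither passed, although Col6a2 passed in the PARP-1 null and the double mutant when either Wrn mutant array was left out. Col6a6 was exactly 0 on 5 arrays. Col7a1, the anchoring fibril that ties skin epithelium to the dermis, lay between -1.44 and -0.24.

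Col23a1 encodes a transmembrane collagen that can be shed from the cell surface. It gave -0.81 and -0.86 in Wrn mutant cells, -1.73 and -1.36 in PARP-1 null cells, and -1.02 and -1.69 in double-mutant cells. All arrays were below 0, and both Wrn mutant arrays were nearer to 0 than the other 4. It fell in the PARP-1 null, at -1.54 ± 0.26 (SD, n = 2, adjusted p = 0.0406 in limma), and in the double mutant, at -1.36 ± 0.48 (adjusted p = 0.0320). The Wrn mutant mean of -0.84 ± 0.04 did not pass (adjusted p = 0.128 in limma). Neither difference from the Wrn mutant passed (adjusted p = 0.680 for the PARP-1 null and 0.544 for the double mutant in limma). Leaving out any 1 array ended the calls of Col23a1 (adjusted p of 0.0539 to 0.170 in the PARP-1 null and 0.0788 to 0.0898 in the double mutant), of Col10a1 (0.0726 to 0.120) and of Col6a4 (0.0934 to 0.124).

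**Figure D5:**
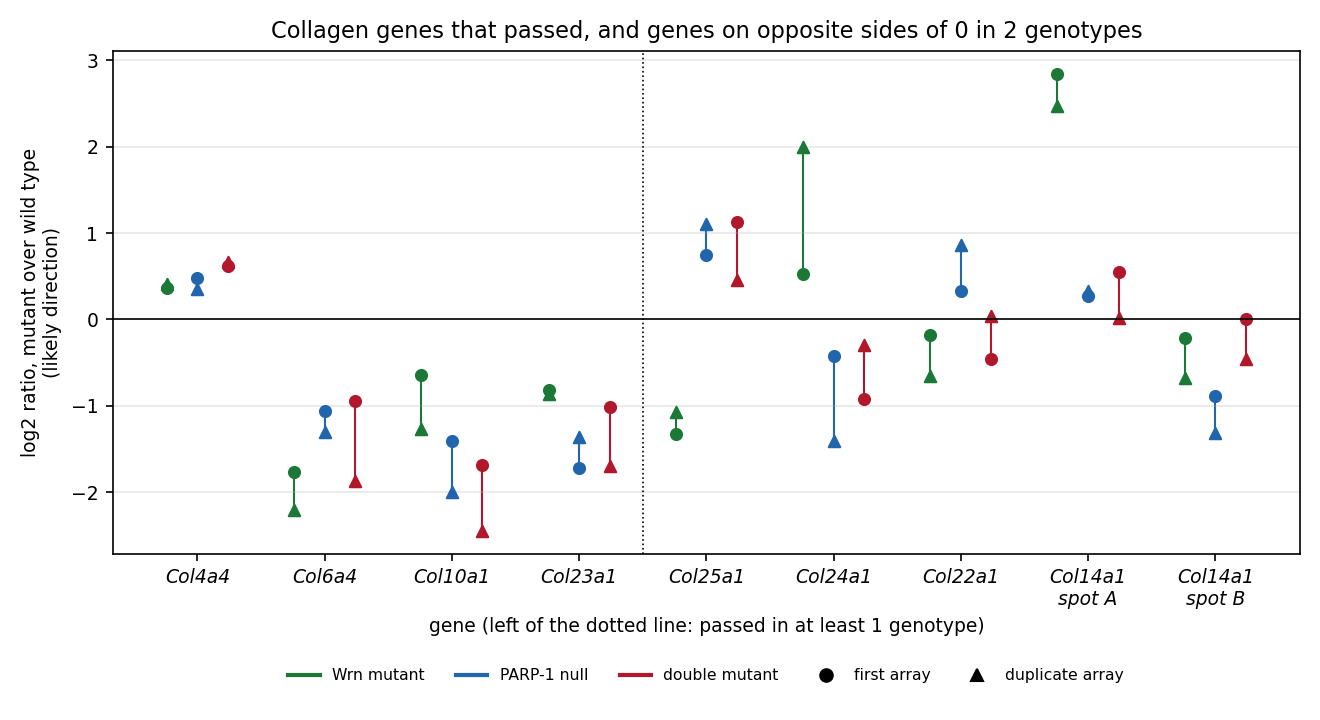
Log2 ratio (y axis, mutant over wild type, likely direction) on the first and the duplicate array of each genotype for the 4 collagen genes that passed (left of the dotted line) and for genes on opposite sides of 0 in different genotypes (right of it). Col25a1 is below 0 on both Wrn mutant arrays and above 0 on the other 4. Col14a1 is on opposite sides only as the mean of its spots. These are drawn apart, and neither changes side between the Wrn mutant and the PARP-1 null.

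As examples, the bases before the start are shown for Col1a2, Col3a1 and Col8a1, above 0 in both single mutants, and Col10a1, below 0. Each is the 250 bases upstream of the annotated start, 5′ to 3′ on the gene's strand, from RefSeq on GRCm38.p6, at chr6:4505368-4505617 (plus strand) for Col1a2, chr1:45311288-45311537 (plus) for Col3a1, chr16:57754738-57754987 (minus) for Col8a1 and chr10:34389731-34389980 (plus) for Col10a1. The first 3 windows overlap no annotated gene, and that of Col10a1 lies within the span of Nt5dc1. Capitals mark 3 motifs on either strand. The first is TATAAA, which reads TTTATA on the opposite strand. The next is CCAAT, read there as ATTGG. The last is GGGCGG, read there as CCGCCC. The marked motifs do not overlap in these windows.
Col10a1: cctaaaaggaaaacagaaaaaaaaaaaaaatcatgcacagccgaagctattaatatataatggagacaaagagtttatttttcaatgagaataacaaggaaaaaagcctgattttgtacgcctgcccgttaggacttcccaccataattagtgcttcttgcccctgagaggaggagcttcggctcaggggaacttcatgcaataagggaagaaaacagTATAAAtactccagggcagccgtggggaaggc
Col1a2: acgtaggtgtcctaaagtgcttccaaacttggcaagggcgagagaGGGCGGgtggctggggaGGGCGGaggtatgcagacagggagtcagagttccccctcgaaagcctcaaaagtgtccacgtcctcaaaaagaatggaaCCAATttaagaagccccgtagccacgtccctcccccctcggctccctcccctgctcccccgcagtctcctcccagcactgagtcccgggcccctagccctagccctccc
Col3a1: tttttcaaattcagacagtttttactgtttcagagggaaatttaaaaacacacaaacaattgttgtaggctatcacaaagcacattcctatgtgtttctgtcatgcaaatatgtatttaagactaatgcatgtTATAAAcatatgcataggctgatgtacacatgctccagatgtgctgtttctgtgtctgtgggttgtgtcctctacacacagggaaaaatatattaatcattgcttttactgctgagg
Col8a1: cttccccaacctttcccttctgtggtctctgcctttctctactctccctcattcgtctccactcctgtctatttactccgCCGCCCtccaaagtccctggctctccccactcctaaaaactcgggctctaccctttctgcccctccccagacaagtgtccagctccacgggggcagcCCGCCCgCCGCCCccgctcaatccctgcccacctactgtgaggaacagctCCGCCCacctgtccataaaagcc

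Col10a1 has TATAAA from 32 to 27 bases before its start, the usual place of a TATA box, and Col3a1 has it from 117 to 112 bases before. Col1a2 has CCAAT from 109 to 105 bases before its start, with GGGCGG, the core of a site for Sp1-like factors, starting 205 and 188 bases before. Col8a1 has GGGCGG at 4 positions, the nearest from 23 to 18 bases before the start. Of 34 windows matched for 31 of the 39 genes, 13 held CCAAT, 20 held GGGCGG and 5 held TATAAA, while of all 32851 RefSeq windows of 250 bases 33.8%, 32.7% and 12.4% did. Such matches are letters in a window, and binding was not measured.

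Between genotypes, 5 collagen genes lay on opposite sides of 0 on both arrays of the PARP-1 null and of the Wrn mutant: Col14a1, Col18a1, Col22a1, Col24a1 and Col25a1 (12.8%, against 5.44% of all named genes). Col14a1 is counted only through the mean of its spots, and neither spot changed side between these genotypes. For the double mutant against the Wrn mutant the genes on opposite sides were 3, Col11a2, Col24a1 and Col25a1 (7.69%, against 7.22%), and against the PARP-1 null 1, Col11a2 (2.56%, against 3.01%). Limma called no collagen gene in any of the 3 comparisons between mutants, where it called 0%, 0% and 0.00606% of all named genes. At an unadjusted p below 0.05 there were 5 for the double mutant against the Wrn mutant (12.8%, against 15.1% of all named genes), 3 against the PARP-1 null (7.69%, against 7.16%), and 4 for the PARP-1 null against the Wrn mutant (10.3%, against 8.80%), all near the background. By size alone, with arrays that did not overlap and means at least 2-fold apart, the counts were 4 (10.3%, against 7.5% of all named genes), 2 (5.13%, against 3.19%) and 5 (12.8%, against 4.96%) in that order. The arrays of a pair of genotypes did not overlap for 14 collagen genes between the PARP-1 null and the Wrn mutant (35.9%, against 33.2% of all named genes), for 13 between the double mutant and the Wrn mutant (33.3%, against 41.6%) and for 10 between the double mutant and the PARP-1 null (25.6%, against 32.4%).

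Col25a1, a transmembrane collagen of neurons that guides motor innervation, gave -1.32 and -1.07 in Wrn mutant cells, 0.75 and 1.10 in PARP-1 null cells, and 1.13 and 0.46 in double-mutant cells. The Wrn mutant lay below 0 and both genotypes without PARP-1 above it. The PARP-1 null was 2.13 above the Wrn mutant on the log2 scale (SE 0.30, adjusted p = 0.260 in limma), and the double mutant 2.00 above it (SE 0.30, adjusted p = 0.162), so neither difference passed. Against wild type the means of -1.20 ± 0.18, 0.93 ± 0.25 and 0.80 ± 0.47 (SD, n = 2) did not pass either (adjusted p of 0.0825, 0.0907 and 0.0832 in limma), but all 3 passed under both other treatments of exact 0. Of the 4 measured neural crest and glial markers, Sox10 gave 0.42 and -0.22, then 2.29 and 2.18, then 3.88 and 3.30, and rose in both genotypes without PARP-1 (adjusted p = 0.0275 and 0.0109 in limma). Foxd3 gave 0.66 and 0.22, then 1.08 and 1.18, then 2.05 and 1.56, and rose in the double mutant (adjusted p = 0.0180 in limma). S100b and Erbb3 were below 0 on all 6 arrays, and the median of the 4 markers ran from -0.13 to 0.93. Their part in the Col25a1 value was not tested.

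Col14a1, a FACIT chain on the surface of type I fibrils, is the single member with more than 1 spot, and its spots disagreed. The mean of its spots was 1.31 and 0.90 in Wrn mutant cells, -0.31 and -0.50 in PARP-1 null cells, and 0.27 and -0.22 in double-mutant cells. One spot gave 2.85 and 2.48 in the Wrn mutant, where the other gave -0.22 and -0.68. In the PARP-1 null they gave 0.27 and 0.33, against -0.89 and -1.32. Fitted as separate spots, the first of these was higher in the Wrn mutant, at 2.66 ± 0.26 (SD, n = 2, limma adjusted p = 0.0169), and the second was not called (-0.45, adjusted p = 0.316). The transcript that each spot detects is not known here.

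Of the other FACIT chains, Col19a1, found in muscle and at neuronal contacts, gave 1.18 and 0.45 in Wrn mutant cells, 0 and 0.36 in PARP-1 null cells, and 1.20 and 2.26 in double-mutant cells. No array was below 0, and the double-mutant mean of 1.73 ± 0.75 (SD, n = 2) came close to the threshold without passing (adjusted p = 0.0521 in limma). Col20a1, a chain described mainly in chick tissues, gave 0.38 and 0.87, then 0.31 and -0.04, then 1.10 and 0.53. Col16a1, which sits beside fibrils in skin, gave -0.34 and 0.40, then 0.27 and 0.56, then 0.29 and 0.39. None of their means passed, but in the double mutant Col20a1 passed under both other treatments of exact 0, and Col19a1 with 0 as missing.

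Col22a1, of the junction between muscle and tendon, gave -0.18 and -0.66 in Wrn mutant cells, 0.33 and 0.86 in PARP-1 null cells, and -0.45 and 0.04 in double-mutant cells, so the PARP-1 null was the one genotype with both arrays above 0. The type IX chains of cartilage, Col9a1 and Col9a2, stayed between -0.26 and 0.71. Among the multiplexins of basement membrane zones, Col18a1, the precursor of endostatin, gave -0.43 and -0.44 in Wrn mutant cells, 0.17 and 0.64 in PARP-1 null cells, and 1.08 and -0.0026 in double-mutant cells. Col15a1 gave 0 on both Wrn mutant arrays, 0.91 and 0.78 in the PARP-1 null, and 1.17 and 0 in the double mutant. Col13a1, a transmembrane chain of the neuromuscular junction, stayed between -0.21 and 0.36, and Col26a1 was 0 on 5 arrays.

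The proteins that fold, cut, cross-link and bind collagen were followed in 5 lists of 86 genes, of which 75 were measured. None of the 75 passed in the Wrn mutant (18, or 24%, at an unadjusted p below 0.05, against 23.4% of all named genes). In PARP-1 null cells 3 passed (4%, against 7.19% of all named genes), and in the double mutant 18 did (24%, against 18.5%), 11 higher and 7 lower. Of all named genes, 10.1% were higher and 8.38% lower in the double mutant. When either double-mutant array was left out, 0 of the 75 passed in the double mutant, and without 1 array of another genotype 2 to 6 did. Without 1 array, the counts were 0 to 4 in the PARP-1 null and 0 to 2 in the Wrn mutant. No gene of these lists passed between mutants in limma (at an unadjusted p below 0.05, 9 for the double mutant against the Wrn mutant, 6 against the PARP-1 null, and 8 for the PARP-1 null against the Wrn mutant, which is 12%, 8% and 10.7%, against 15.1%, 7.16% and 8.80% of all named genes).

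Of 18 folding and modifying enzymes, 2 rose and 1 fell in the double mutant, where 18.5% of all named genes passed. Serpinh1, the chaperone HSP47 that binds only collagen helices, gave 0.57 and 0.79 in Wrn mutant cells, 0.30 and 0.89 in PARP-1 null cells, and 0.84 and 1.32 in double-mutant cells. All arrays were above 0, and in the double mutant the mean was 1.08 ± 0.34 (SD, n = 2, adjusted p = 0.0481 in limma). P3h4, a member of a lysine hydroxylation complex, rose there by 0.88 ± 0.07 (adjusted p = 0.0233 in limma), and Fkbp14, a proline isomerase, was at -1.93 ± 0.58 (adjusted p = 0.0260).

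Of 14 processing and cross-linking genes, 3 rose and 2 fell in the double mutant and 1 fell in the PARP-1 null. Of all named genes, 18.5% and 7.19% passed in these genotypes. Lox, the lysyl oxidase that starts cross-linking of fibers, gave 0.61 and 1.09 in Wrn mutant cells, 1.27 and 1.53 in PARP-1 null cells, and 1.62 and 2.50 in double-mutant cells. The genotypes did not overlap and were ordered Wrn mutant, PARP-1 null, double mutant, although no difference between them passed. In the double mutant Lox was at 2.06 ± 0.62 (SD, n = 2, adjusted p = 0.0264 in limma). Its relative Loxl3 fell there, at -1.49 ± 0.52 (adjusted p = 0.0340 in limma). Pcolce2, an enhancer of procollagen cutting, gave -0.77 and -0.81 in Wrn mutant cells, 0.32 and 0.69 in PARP-1 null cells, and 1.02 and 0.81 in double-mutant cells, where it rose (adjusted p = 0.0247 in limma). Bmp1, the protease that cuts the procollagen C-terminus, fell in the double mutant, at -1.13 ± 0.15 (adjusted p = 0.0495 in limma). Of the genes that export procollagen, Mia3 rose in the double mutant, at 0.46 ± 0.09 (adjusted p = 0.0443 in limma), and Sec23a fell in the PARP-1 null, at -1.23 ± 0.20 (adjusted p = 0.0359).

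Among 12 receptors, Cd44, a hyaluronan receptor that also binds collagen, fell in the PARP-1 null, at -1.18 ± 0.09 (SD, n = 2, adjusted p = 0.0327 in limma), and in the double mutant, at -1.12 ± 0.09 (adjusted p = 0.0238). Ddr2, a receptor kinase for fibrillar collagen, fell in the double mutant, at -0.88 ± 0.22 (adjusted p = 0.0282 in limma), and Adgrg1, a receptor of type III collagen, rose there, at 2.55 ± 0.92 (adjusted p = 0.0401). Of 14 basement membrane partners, the laminin chains Lama5 and Lamc1 rose in the double mutant, Lama5 at 1.61 on both arrays and Lamc1 at 0.56 ± 0.03 (adjusted p = 0.0394 and 0.0383 in limma). Of 17 TGF-beta genes and matrix regulators, 3 rose and 2 fell in the double mutant, where 18.5% of all named genes passed. The ligands Tgfb2 and Tgfb3 were at 1.68 ± 0.28 and 1.87 ± 0.24 (SD, n = 2, adjusted p = 0.0361 and 0.0328 in limma), and the co-receptor Tgfbr3 at -1.13 ± 0.0063 (adjusted p = 0.0390). Sp1, a factor that binds GGGCGG-like sites, rose in the PARP-1 null, at 0.58 ± 0.06 (adjusted p = 0.0275 in limma), and in the double mutant, at 0.65 ± 0.13 (adjusted p = 0.0167). Creb3l1, a regulator of collagen secretion genes, fell in the double mutant, at -0.79 ± 0.13 (adjusted p = 0.0213 in limma).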

How the data were processed

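The authors deposited 1 log ratio per spot and array, taken here as log10 because values stop at a size of exactly 2. Log base, centring, background correction, spot filters and direction are not stated in the sources used here. Values were multiplied by 3.32 to give log2 ratios. Spots with 1 symbol in the platform annotation were averaged per gene, giving 16504 named genes, and 4175 spots with several symbols or none were kept singly. Intensities were not analysed here, and precision is limited by the number of arrays.

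A single limma model (version 3.58.1, R 4.3.3, with the data.table package, version 1.17.8) of the 6 arrays, having 1 coefficient for each genotype, was run on 20679 features. It had 3 residual degrees of freedom and a prior of 0.66. Benjamini-Hochberg adjustment covered every feature in each of 6 comparisons, at a threshold of 0.05. The script was tested on simulated data. Which wild-type pool lay on which array is not given, so a test against 0 may leave out wild-type spread.

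The collagen genes and the partner and marker lists were chosen with earlier results of these data known. Per-array values are given for members that passed, for the 3 of each class with the largest mean over genotypes, for neighbouring pairs, and for members on opposite sides of 0. These last, the motifs and the printed windows were chosen after values were seen. By exception, Col7a1, Col11a2 and Col13a1 are given by range, and Col26a1 by its count of arrays at 0. Col6a3, Col6a5, Col12a1, Col21a1, Col27a1 and Col28a1 were not among the genes named here. Partner genes named are those that passed against wild type, up to 6 a list. The second-minus-first difference of the arrays correlated between genotypes at -0.17 to 0.17, so array numbers were not treated as pairs. Alternatives were scale normalization, a replicate block, exact 0 as missing, spots with a 0 left out, spots fitted singly, a 2-fold rule, fits of the arrays compared alone and leaving out each array. For the partner lists, leaving out each array was added after seeing the data. The figures were made in Python 3.11.15 using matplotlib 3.10.9.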

Additional observations from a re-analysis of the deposited data

Results flagged for a closer look

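Some collagen genes had both arrays of 1 genotype on one side of 0 and both arrays of another on the other side. The difference was tested in limma, and none passed. Col25a1 differed by 2.00 on the log2 scale between the double mutant and the Wrn mutant (adjusted p = 0.162 in limma) and by 2.13 between the PARP-1 null and the Wrn mutant (adjusted p = 0.260). Col24a1 differed by -1.87 for the double mutant minus the Wrn mutant (SE 0.70, adjusted p = 0.383 in limma) and by -2.18 for the PARP-1 null minus the Wrn mutant (SE 0.70, adjusted p = 0.555).

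For the PARP-1 null minus the Wrn mutant, Col14a1 differed by -1.51 (SE 0.25, adjusted p = 0.303 in limma), a mean of spots that disagree. Col22a1 differed by 1.01 in the same comparison (SE 0.32, adjusted p = 0.555 in limma), and Col18a1 by 0.84 (SE 0.44, adjusted p = 0.794). Col11a2 differed by -0.20 for the double mutant minus the Wrn mutant and by -0.17 for the double mutant minus the PARP-1 null (SE 0.05 in each, adjusted p = 0.278 and 0.708 in limma), with ratios close to 0 throughout.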

How the results depend on the processing

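The count of collagen genes that passed depended on the processing, and the cause was not tested. Counts are given for the Wrn mutant, the PARP-1 null and the double mutant in that order, from 1, 2 and 4. Scale normalization gave 2, 0 and 1 (where 5.7%, 7.41% and 6.14% of all named genes passed), a replicate block 0, 0 and 2, and fits of the compared arrays alone 0, 0 and 0. With exact 0 as missing the counts were 3, 7 and 10, of 33, 35 and 34 genes tested (5.87%, 15.3% and 31.1% of all named genes), and with spots holding a 0 left out they were 5, 8 and 9, of 29 genes tested, where 9.30%, 17.7% and 37.0% of all named genes passed. Under both treatments of 0, Col25a1 and Col6a4 passed in all 3 genotypes. Col1a2, Col10a1 and Col23a1 passed in both genotypes without PARP-1, and Col11a1 in both single mutants. Col8a1 and Col20a1 passed in the double mutant, and Col4a4 in the double mutant alone. None of these genes had an exact 0 on any array. The 2-fold rule gave 8, 8 and 7. Without 1 array the counts ran from 0 to 1, 0 to 2 and 0 to 2. Between mutants, where 0 passed, leaving out spots with a 0 gave 1 for the double mutant against the Wrn mutant (Col14a1), leaving out an array gave 0, and the 2-fold rule gave 4 for the double mutant against the Wrn mutant, 2 against the PARP-1 null and 5 for the PARP-1 null against the Wrn mutant. With spots fitted singly the counts were 1, 2 and 4, but the call in the Wrn mutant was Col14a1's spot and Col4a4 missed the threshold (adjusted p = 0.0504 in limma).

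The collagen median in the Wrn mutant moved from 0.15 to 0.36 with 0 as missing, to 0.39 with such spots left out, and from 0.15 to 0.35 without 1 array. Without 1 array it ran from 0.17 to 0.48 in the PARP-1 null, and from 0 to 0.39 in the double mutant, where 0 as missing gave 0.35. Array numbers were not treated as pairs, and whether arrays of the same number share a litter or a wild-type pool is not known here. Of 13 alternatives, Col4a4 passed under 0 for Wrn mutant cells, 1 for PARP-1 null cells and 9 for double-mutant cells, Col10a1 in 5 and Col6a4 in 4 in the double mutant, and Col23a1 in 4 in each genotype where it was called. No called value changed sign. Each called gene lay on the same side of 0 on all 6 arrays, so leaving out or rescaling arrays could not have changed it.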
